A study of Mus musculus with 16 samples.

Results

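Cajal-Retzius neurons were examined among single nuclei of the mouse hippocampus. A nucleus was taken as Cajal-Retzius where it held at least 1 unique molecular identifier (UMI, a tag that marks one captured RNA molecule) of *Reln* and at least 2 of *Trp73*, *Lhx1*, *Lhx5* and *Ebf3*, and none of *Gad2*, *Mog*, *Csf1r* and *Pdgfra*. The nuclei were thus chosen by the measured counts of these 9 genes, and the levels of those genes are described without a test. The rule found 443 nuclei among 145776 that passed the limits on genes and mitochondrial UMIs, of 155084 barcodes in all. The 16 libraries came from the right hippocampi of male mice, 1 animal per library. C57BL/6 wild-type (WT) mice and mice lacking *Ifnar1* (Ifnar1-/-), the gene of a subunit of the type I interferon receptor, were each given vehicle or DMXAA, an agonist of mouse STING, by repeated intraperitoneal injection, with 4 mice per group. The Ifnar1-/- mice (3 months and 3 days) were older than the WT mice (2 months and 23 days), so a difference between genotypes cannot be told apart from one of age. Nor can it be told apart from one of cohort or library processing where these went with genotype. The receptor is missing from every cell of an Ifnar1-/- mouse, so an effect on Cajal-Retzius neurons and an effect on the cells around them are not separated by these groups.

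Cajal-Retzius neurons are early-born glutamatergic neurons of the outermost cortical layer and of the outer molecular layer of the dentate gyrus. They secrete Reelin, an extracellular protein that binds the receptors VLDLR and ApoER2 on neighbouring neurons and guides their layering. Most die soon after birth in the neocortex, and a population persists in the adult hippocampus. Type I interferon binds IFNAR1 and IFNAR2, whose kinases activate STAT proteins, and these enter the nucleus with IRF9 and bind the interferon-stimulated response element.

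Per library, 7869 to 12457 barcodes with 66059561 to 93228638 UMIs were deposited. Cajal-Retzius nuclei were shallow, with a median of 3249 UMIs (lowest 796, highest 36767) and 1666 genes. Of the 443 nuclei, 26 held over 10000 UMIs, and these made up 22.9% of the class's UMIs, with 10 of them called as doublets. Doublet calls covered 22 Cajal-Retzius nuclei (4.97%), against 8.03% of all nuclei. The share over all nuclei was set beforehand from the number of barcodes in each library. The rule also leaves out nuclei with *Gad2*, *Mog*, *Csf1r* or *Pdgfra*, so nothing is read from the lower share. Among all libraries 3033 barcode strings occurred in more than 1 library, and 0 Cajal-Retzius nuclei shared theirs with another. Libraries with at least 20 Cajal-Retzius nuclei entered the comparisons of genes. These were 13 libraries (3 WT vehicle, 4 WT DMXAA, 3 Ifnar1-/- vehicle and 3 Ifnar1-/- DMXAA) with 390 nuclei and 71483 to 220768 UMIs each, so that 1 UMI was worth 4.53 to 13.99 counts per 1000000 UMIs of the class in that library (CPM).

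The 5 marker genes of the rule were not seen equally often. *Trp73*, a p53 family transcription factor, was present in 95.5% of the 443 nuclei, and *Ebf3*, a helix-loop-helix factor, in 89.4%. The LIM homeobox genes *Lhx1* and *Lhx5* were present in 29.4% and 22.8%. Trp73 and Ebf3 were found together in 376 nuclei (84.9%), and every nucleus held at least 1 of them. Of the 443 nuclei, 298 lay at the limit of 2 of the 4 genes, 126 held 3 and 19 held all 4. *Reln* ranged from 1 to 162 UMIs per nucleus, with a median of 35.

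The level of *Reln* was 9941, 6932 and 5024 CPM in WT vehicle replicates 2 to 4, and 5765, 9023, 9259 and 9197 CPM in the WT DMXAA libraries. In Ifnar1-/- mice it was 9823, 15620 and 12030 CPM with vehicle and 10550, 8928 and 9519 CPM with DMXAA. The WT groups overlapped, and so did the Ifnar1-/- groups. *Trp73* was at 519, 549 and 292 CPM in WT vehicle libraries and at 488, 658, 942 and 642 CPM in WT DMXAA libraries, again with overlap.

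Genes known from Cajal-Retzius cells that the rule did not use were seen to unequal extents. *Ndnf*, which encodes a secreted neurotrophic protein, was present in 92.8% of the 443 nuclei at a median depth of 3249 UMIs. It was present in 0.919% of dentate granule nuclei and 0.396% of microglia nuclei, types that should lack it, at median depths of 9672 and 1953 UMIs. *Cacna2d2*, an auxiliary subunit of voltage-gated calcium channels, was present in 89.8% of Cajal-Retzius nuclei and in 2.08% and 1.26% of those 2 types. *Reln*-positive interneurons, the class most like it, held *Ndnf* in 21.3% and *Cacna2d2* in 52.1% of nuclei, at a median depth of 11660 UMIs and levels of 68.3 and 108 CPM against 1489 and 732 CPM. All but 6 of the 443 nuclei held at least 1 of these 2 genes. *Slc17a6*, the vesicular glutamate transporter VGLUT2, was found in 43.1% of nuclei against 1.28% of these interneurons. Other known genes were rare, with *Calb2*, the calcium-binding protein calretinin, in 7.22% and *Zic1*, a zinc finger factor, in 8.13% of Cajal-Retzius nuclei, against 2.73% and 4.77% of the interneurons. *Spock1*, a proteoglycan, was in 30.0% of Cajal-Retzius nuclei and in 86.8% of the interneurons. *Gad1*, an enzyme of GABA synthesis, was found in 4.29% of Cajal-Retzius nuclei, below its share in dentate granule nuclei (29.7%) and above that in microglia (2.16%).

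The rule's limit was compared on these outside genes. Nuclei with 2 of the 4 genes had 1527 CPM of *Ndnf* and 738 CPM of *Cacna2d2*, and nuclei with 3 or 4 had 1420 and 720 CPM. All members together had 1489 and 732 CPM. Just outside the limit were 421 nuclei with *Reln* and only 1 of the 4 genes, where *Ndnf* was at 112 CPM and *Cacna2d2* at 87.5 CPM. A further 64 nuclei met the marker part of the rule but held a UMI of *Gad2*, *Mog*, *Csf1r* or *Pdgfra*, and their *Ndnf* level was 502 CPM. These are descriptions of the limit and were not tested.

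Cajal-Retzius nuclei formed 0.239% ± 0.0968 (SD, n = 4) of the nuclei in WT vehicle libraries, with 16, 35, 23 and 21 nuclei in replicates 1 to 4. In WT DMXAA libraries they formed 0.315% ± 0.107, with 29, 24, 54 and 21 nuclei. The Ifnar1-/- vehicle libraries held 31, 27, 35 and 18 such nuclei (0.344% ± 0.0901) and the Ifnar1-/- DMXAA libraries 19, 23, 39 and 28 (0.321% ± 0.0746). All 4 groups overlapped. The difference between DMXAA and vehicle gave p = 0.371 in WT and p = 0.743 in Ifnar1-/- mice (two-sided exact permutation tests, in which 4 against 4 libraries cannot give a p below 0.0286). Between the genotypes the shares were 0.333% in Ifnar1-/- and 0.277% in WT libraries (exact permutation p = 0.238, 8 libraries each). Adjusted over the 3 comparisons, the values were 0.557, 0.743 and 0.557.

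**Figure D1:**
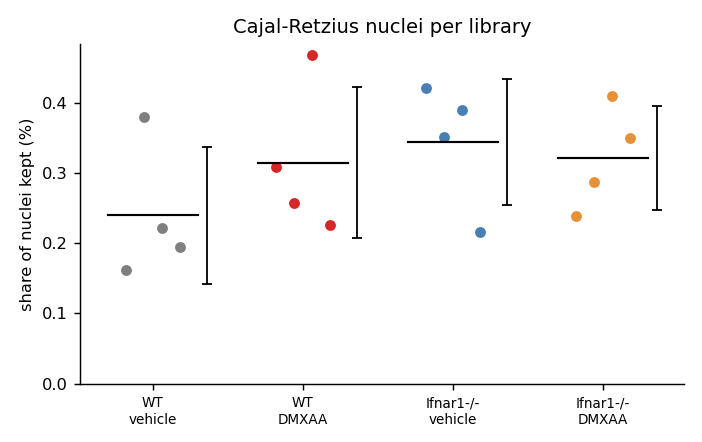
Share of kept nuclei that met the Cajal-Retzius rule (%, y axis) in each of the 16 libraries, by group. Each point is 1 library, the horizontal line is the mean and the error bar beside it is ± SD. The 4 groups overlap, with single libraries from 0.162% to 0.467%.

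The nuclei were next compared with *Reln*-positive interneurons, which also make Reelin, and with dentate granule neurons, which lie beside them, all from the same 13 libraries with the library as a block. *Reln*-positive interneurons were nuclei with *Reln*, *Gad1* and *Gad2* and at most 1 of the 4 marker genes (3441 nuclei). Dentate granule neurons were nuclei with *Prox1*, *Slc17a7* and at least 1 of *C1ql2*, *Dsp* and *Glis3* (13711 nuclei). Outside the genes of the rules, 1447 of 8829 genes (16.4%) differed from the interneurons by more than 1 on the log2 scale at an edgeR adjusted p under 0.05. Of these, 555 (6.29%) were higher and 892 (10.1%) lower in Cajal-Retzius nuclei. Against dentate granule neurons, 2644 of 11681 genes differed (22.6%), with 979 higher (8.38%) and 1665 lower (14.3%).

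*Nhlh2*, a helix-loop-helix factor of developing neurons on chromosome 3 (102010076 to 102015492, GRCm38), was at 57.3 CPM (lowest 22.65, highest 122.0) in Cajal-Retzius nuclei. The interneurons of the same libraries held 0 UMIs of it in 39239607, so the level was at least 749-fold higher than the floor of 3 counts over that group. *Slc17a6* was at 164 CPM against 1.497 CPM in the interneurons, a difference of 6.65 ± 0.28 (SE) on the log2 scale (edgeR adjusted p = 6.158e-17). *Emx2*, a homeobox factor of the dorsal telencephalon, differed by 6.62 ± 0.31, and *Eya2*, a transcriptional coactivator and phosphatase, by 6.67 ± 0.25. *Cd274*, which encodes the immune checkpoint ligand PD-L1, was at 141 CPM against 0.550 CPM in interneurons and 0.796 CPM in dentate granule neurons, and it was higher in Cajal-Retzius nuclei in 13 of 13 libraries in both comparisons. *Tmem163*, a zinc transporter of vesicles, was at 1267 CPM against 7.25 CPM. The other genes named by their fold were *Mab21l3*, *Gm31938*, *Shisal2b* and *Ggt5*, with log2 differences of 8.15 to 8.44.

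Lower than in the interneurons were the genes of the GABA cells. *Dlx6os1*, a noncoding RNA of the DLX locus, was at 3.60 CPM against 396 CPM, a log2 difference of −6.48 ± 0.26. *Npy*, which encodes neuropeptide Y, and *Igf1*, an insulin-like growth factor, were represented by 2 and 1 UMIs in Cajal-Retzius nuclei, against 54.8 and 132 CPM in interneurons. *Slc32a1*, the vesicular GABA transporter, was at 1.93 against 57.6 CPM. Since the interneurons were chosen by *Gad1* and *Gad2*, and GABA genes pass the filter on low counts through them, these values are a description and no count over such genes is read.

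Against dentate granule neurons, *Ndnf* had the largest difference, at 1522 CPM (lowest 1103, highest 1881) against 0.979 CPM, or 10.17 ± 0.19 on the log2 scale (edgeR adjusted p = 3.101e-27). *Cacna2d2* differed by 7.86 ± 0.16, *Lhx1os*, an antisense RNA beside *Lhx1*, by 9.49 ± 0.35, and *Lrig3*, a transmembrane protein with leucine-rich repeats, by 7.43 ± 0.16. Whether the reads of *Lhx1os* and *Lhx1* were told apart by strand was not tested here. On the lower side stood *Synpr*, a protein of synaptic vesicles, with 67.8 against 1030 CPM, *Trpc6*, a cation channel, with 22.6 against 341 CPM, and *Stxbp6*, a regulator of vesicle fusion, with 60.8 against 814 CPM. Of 28 listed Cajal-Retzius genes outside the rule, 14 passed the filter in the comparison with interneurons (11 higher, 2 lower) and 17 in that with dentate granule neurons (14 higher, 0 lower), where 6.29% and 8.38% of all genes were higher and 10.1% and 14.3% lower. A gene could pass through the class in which it was high, so nothing is read from these counts, and those given below for other lists between classes are descriptions in the same way.

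**Figure D2:**
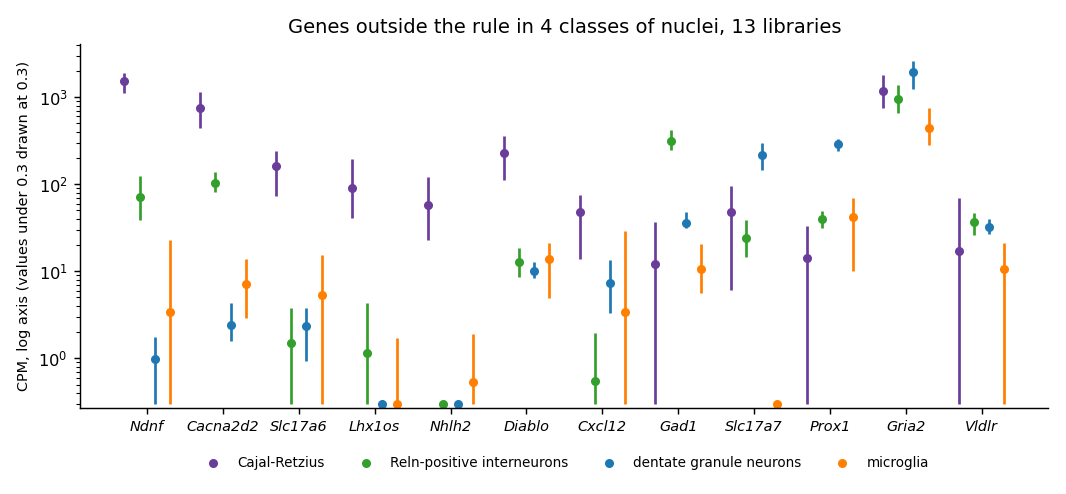
Level in CPM (log axis, values under 0.3 drawn at 0.3) of 12 genes outside the Cajal-Retzius rule in 4 classes of nuclei. Each point is the mean over the same 13 libraries and the line runs from the lowest to the highest library. *Ndnf*, *Cacna2d2*, *Slc17a6*, *Lhx1os*, *Nhlh2*, *Diablo* and *Cxcl12* have their highest means in Cajal-Retzius nuclei, while *Gad1*, *Slc17a7* and *Prox1*, which served in the rules of the other classes, do not.

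The genes of Reelin signalling were compared by role. The ligand *Reln* belongs to the rule. Of the 2 receptors, *Vldlr* was lower than in interneurons (16.9 against 36.5 CPM, log2 difference −1.25 ± 0.28) and lower than in dentate granule neurons (32.2 CPM, −1.32 ± 0.28). *Lrp8*, the gene of ApoER2, did not pass in either comparison (−0.37 ± 0.16 and −0.09 ± 0.16). *Dab1*, the adaptor of these receptors, was at 987 CPM against 1913 CPM in interneurons and 4930 CPM in dentate granule neurons. It was called lower against both (edgeR adjusted p = 1.803e-06 and 2.604e-13). Of the list's 30 genes, 24 passed the filter against interneurons, with 1 called higher and 2 lower, and 26 against dentate granule neurons, with 0 higher and 6 lower. Over all genes, 6.29% and 8.38% were higher and 10.1% and 14.3% lower in these comparisons, so the counts against interneurons were no larger than the background. The median log2 difference was 0.04 and −0.06 over the list, and 0.01 and −0.11 over all genes tested. The gene called higher than in interneurons was *Apoe*, which encodes a lipid carrier of glia (184 against 50.8 CPM). *Apoe* was at 721 CPM in microglia nuclei, and the 3 astrocyte markers that passed the filter were also called higher than in interneurons, among them *Slc1a3* (95.6 against 22.0 CPM) and *Slc4a4* (248 against 89.3 CPM). Summed over 8 astrocyte markers the level was 81.3 to 1334 CPM. The part that RNA from other cells had in *Apoe* was not tested.

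Receptors for glutamate and GABA were described next, and 19 glutamate receptor genes and 8 of the GABA-A and chloride genes had enough counts in Cajal-Retzius nuclei alone, so that further genes passed with the counts of the other class. Of 22 glutamate receptor genes that passed the filter against interneurons, 14 were lower and 0 higher, with a median of −1.44, and against dentate granule neurons 14 of 24 were lower and 2 higher, with a median of −1.26. All genes were also lower more often than higher, in the shares given above, with medians of 0.01 and −0.11. *Grin2a* and *Grin2b*, subunits of NMDA receptors, were at 547 and 526 CPM, against 4658 and 2200 CPM in dentate granule neurons. *Grm5*, a metabotropic receptor, was at 499 CPM against 2465 CPM in interneurons and 2081 CPM in dentate granule neurons. The 2 receptors higher than in dentate granule neurons were *Gria4* (1351 against 205 CPM) and *Grik1* (114 against 18.6 CPM). Of the GABA-A receptor and chloride transporter genes, 8 of 16 were lower than in interneurons with 0 higher, and 11 of 15 were lower than in dentate granule neurons with 1 higher. *Slc12a5*, the chloride extruder KCC2, was at 36.3 CPM against 106 and 116 CPM, and *Slc12a2*, the chloride importer NKCC1, was at 44.4 CPM against 55.5 and 41.3 CPM and passed in neither comparison.

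Of 46 listed voltage-gated channels, 31 had enough counts in Cajal-Retzius nuclei alone, with the same limit on the counts between classes. Against interneurons 5 of 45 tested genes were higher and 15 lower, and against dentate granule neurons 5 of 44 were higher and 20 lower. The background over all genes was 6.29% higher and 10.1% lower, and 8.38% higher and 14.3% lower. *Kcnh7*, a channel of the ERG potassium family, was at 4915 CPM (lowest 3342, highest 6190) against 965 and 432 CPM. *Kcnb2*, a delayed rectifier, was at 4544 CPM (lowest 2938, highest 6100) against 713 and 791 CPM, and *Kcnq5*, an M-current channel, was at 2672 CPM against 1125 and 296 CPM. For all 3 channels the lowest Cajal-Retzius library lay above the mean of either other class.

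Of 35 listed genes of apoptosis and of the p53 family's targets, 14 passed the filter against interneurons (3 higher, 0 lower) and 23 against dentate granule neurons (6 higher, 2 lower), where 6.29% and 8.38% of all genes were higher and 10.1% and 14.3% lower. The medians over the list were 0.37 and 0.58. *Diablo*, which encodes an antagonist of inhibitors of apoptosis, was at 227 CPM (lowest 112, highest 353) against 12.6 and 10.1 CPM. *Mdm2* and *Sesn1*, targets of p53, were at 84.0 and 247 CPM against 31.3 and 109 CPM in interneurons, with log2 differences of 1.29 ± 0.14 and 1.005 ± 0.11. Of the chemokine axis that positions these cells in development, *Cxcl12*, the ligand, was at 48.1 CPM against 0.552 CPM in interneurons and 7.42 CPM in dentate granule neurons. *Ackr3*, an atypical receptor of the same ligand, was lower than in dentate granule neurons, at 2.61 against 14.3 CPM (−2.54 ± 0.52). The receptor *Cxcr4* was at 17.6 CPM (lowest 0, highest 75.5) against 0.930 and 0.0912 CPM and did not pass the filter.

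The effect of DMXAA was then asked in each genotype. In WT libraries 0 of 3168 genes (0.0%) were called at an edgeR adjusted p under 0.05, and the raw p of 151 genes lay under 0.05. DESeq2 likewise gave 0 calls and 85 raw p under 0.05. In Ifnar1-/- libraries edgeR gave 0 calls (0.0%) and 105 raw p under 0.05, and DESeq2 gave 0 and 54. For the difference between these 2 effects edgeR gave 0 calls (0.0%) and 133 raw p under 0.05, and DESeq2 gave 0 and 71. Each of these raw counts was under 0.05 of the genes tested, the share expected where no gene differs. In the same libraries edgeR called 7 genes in WT dentate granule neurons (0.0451%), 63 in WT microglia (0.654%) and 0 in *Reln*-positive interneurons. These classes held 11577, 3318 and 2850 nuclei in the 13 libraries, against 390 Cajal-Retzius nuclei. The part of the number of nuclei in the calls was not tested. None of the listed genes was called in any DMXAA contrast of Cajal-Retzius nuclei under the filter on low counts.

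Only *Adar* of the interferon-stimulated genes had enough counts for that filter, so the list was described by its counts. Of its 98 genes, 95 were in the files, 61 had at least 1 UMI in the 13 libraries and 21 had 10 or more. Summed over the list, the level was 420, 472 and 299 CPM in WT vehicle replicates 2 to 4 and 1276, 532, 553 and 956 CPM in the 4 WT DMXAA libraries. Over all nuclei of the class the WT groups did not overlap. The means were 397 ± 88.4 (SD, n = 3) and 829 ± 357 (n = 4), a ratio of 2.09. In Ifnar1-/- mice the sum was 405, 342 and 390 CPM with vehicle and 404, 426 and 392 CPM with DMXAA, where the groups overlapped at a ratio of 1.07. The WT ratio was 1.98 without the nuclei over 10000 UMIs and 1.93 without the nuclei called as doublets. Without the nuclei over 10000 UMIs the WT groups overlapped, with vehicle up to 564.1 CPM and DMXAA from 526.4 CPM. They also overlapped without the doublets (up to 526.9 and from 526.4 CPM) and with at most 4000 genes per nucleus (up to 564.1 and from 526.4 CPM). The same ratio was 1.27 in *Reln*-positive interneurons, 2.68 in dentate granule neurons and 3.95 in microglia. Over all nuclei of a library together the mean was 354 CPM in WT vehicle and 792 CPM in WT DMXAA libraries, a ratio of 2.24 at levels near those of Cajal-Retzius nuclei. The part of RNA shared by all nuclei in the Cajal-Retzius sum was not tested.

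**Figure D3:**
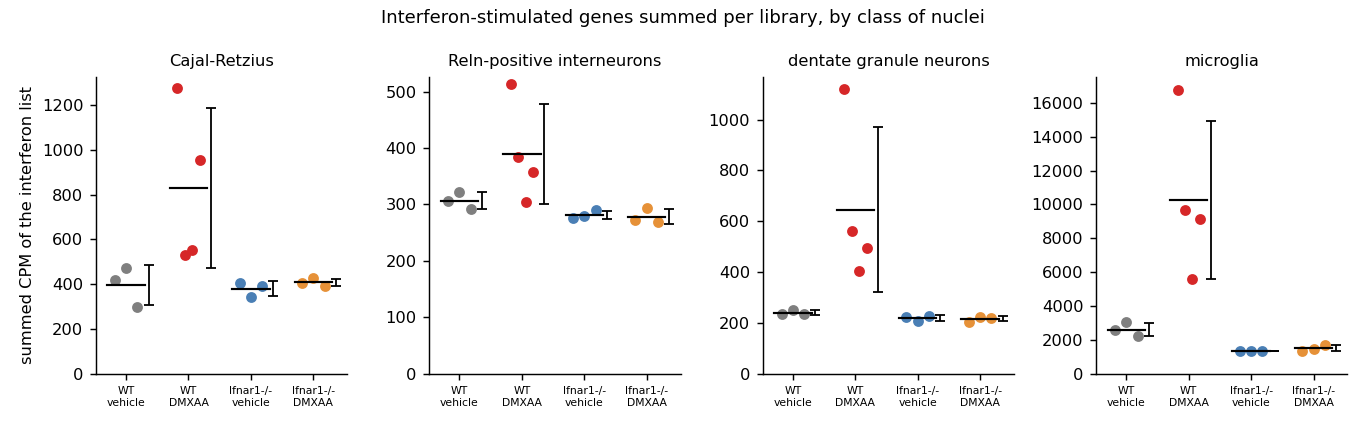
Summed level of the interferon-stimulated genes (CPM, linear axes that start at 0 and differ between panels) in 4 classes of nuclei from the 13 libraries. Points are libraries, lines are means and error bars are ± SD. Over all Cajal-Retzius nuclei the 4 WT DMXAA libraries lie between 532 and 1276 CPM. The 3 WT vehicle libraries lie between 299 and 472 CPM, and the 2 Ifnar1-/- groups overlap. Without the nuclei called as doublets the WT groups of Cajal-Retzius nuclei overlap too, with vehicle up to 526.9 CPM and DMXAA from 526.4 CPM. They also overlap without the nuclei with most UMIs, with vehicle up to 564.1 CPM and DMXAA from 526.4 CPM.

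Microglia held more of these RNAs per nucleus, so their markers were read in the Cajal-Retzius nuclei. Summed over 11 microglia markers, the level was 25.7 to 138 CPM, with a median of 0.607% of the level in microglia nuclei, and *Csf1r* was at 0 by the rule. The sum ranged from 51.5 to 93.2 CPM in WT vehicle and from 54.4 to 138 CPM in WT DMXAA libraries, 25.7 to 97.6 CPM in Ifnar1-/- vehicle and 34.6 to 66.5 CPM in Ifnar1-/- DMXAA libraries. The part of RNA from other cells in the summed interferon genes was not tested.

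Single genes of the list were carried by few UMIs. *Rnf213*, a large E3 ubiquitin ligase, had 1, 0 and 1 UMIs in the 3 WT vehicle libraries and 15, 1, 12 and 12 in the 4 WT DMXAA libraries. In CPM these were 6.66, 0 and 7.30 CPM against 122, 14.0, 54.4 and 151 CPM, so the groups did not overlap but 1 DMXAA library came close. The ratio of the pooled counts was 16.3 (exact 95% interval 4.23 to 139, counting error only). *Rnf213* was seen in 26 of 128 WT DMXAA nuclei and 2 of 79 WT vehicle nuclei. Ifnar1-/- libraries held 5 UMIs with vehicle and 6 with DMXAA. Without a filter on low counts *Rnf213* was called in WT (3.81 ± 0.79 on the log2 scale, edgeR adjusted p = 0.0023), among 20 genes called of 17813 (0.112%) and 2 called higher (0.0112%). In that fit the difference between the WT and Ifnar1-/- effects on *Rnf213* was 3.41 ± 1.32 and was not called (edgeR adjusted p = 0.9998). The fit also gave *Dpp10* in WT an edgeR adjusted p of 6.06e-14, where the fit with the filter gave 0.955.

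*Ddx60*, a helicase of RNA sensing, had 1, 0 and 0 UMIs with vehicle and 8, 5, 8 and 5 with DMXAA in WT libraries, which is 6.66, 0 and 0 CPM against 65.0, 69.95, 36.2 and 62.9 CPM. Every WT DMXAA library was above every vehicle library. The ratio of the counts was 21.2 (3.49 to 870), and the adjusted p of edgeR without the filter was 0.053. In Ifnar1-/- libraries there were 2 UMIs with vehicle and 3 with DMXAA. The difference between the WT and Ifnar1-/- effects without the filter was 3.38 ± 1.90 and was not called (edgeR adjusted p = 0.9998). *Eif2ak2*, the RNA-dependent kinase PKR, had 3 UMIs in WT vehicle and 16 in WT DMXAA libraries, and *Ifi27*, a mitochondrial interferon-induced protein, had 2 and 11. Their WT libraries did not overlap either, with ratios of 4.35 (1.25 to 23.3) and 4.49 (0.979 to 41.7). The nearest vehicle and DMXAA libraries were at 17.2 and 25.2 CPM for *Eif2ak2* (2 UMIs each). For *Ifi27* they were at 8.58 and 9.06 CPM (1 and 2 UMIs). *Tor3a* of the same list did not overlap in the lower direction, with 6 UMIs in WT vehicle and 1 in WT DMXAA libraries. Among all genes that passed the filter, 155 of 3168 (4.89%) did not overlap in WT. None of the genes named here passed it, and no such share was taken for genes at their low counts.

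The transcription factors of the pathway were less even. *Stat2* had 18 UMIs with vehicle and 39 with DMXAA in WT (ratio 1.77, 0.988 to 3.28), and *Irf9*, its DNA-binding partner, had 3 and 13. Of the 16 UMIs of *Oasl2*, an oligoadenylate synthetase-like protein, in WT DMXAA libraries, 12 came from replicate 1. *Adar*, an RNA-editing enzyme with a constitutive and an interferon-induced form, was at 93.2, 137 and 58.4 CPM against 138, 14.0, 90.6 and 151 CPM (ratio 1.07, 0.690 to 1.68), and *Parp12*, an ADP-ribosyltransferase, had 13 and 15 UMIs. Over the 61 listed genes with counts, the median log2 difference without a filter was 1.56 in WT and 0.00 in Ifnar1-/- libraries, with 0.00 over all genes in both. A gene could enter through the group in which it was high, since 1 UMI in any library was enough. The list's UMIs were 159 in WT vehicle, 393 in WT DMXAA, 157 in Ifnar1-/- vehicle and 148 in Ifnar1-/- DMXAA libraries. Nothing is read from these medians or from the counts that follow. Of the 61 genes, 6 (9.84%) were higher in WT at an unadjusted p under 0.05, against 207 (1.16%) of all 17813 genes. Lower were 0 of the 61, against 404 (2.27%) of all genes. In Ifnar1-/- libraries 2 (3.28%) were higher, against 315 (1.77%) of all genes.

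**Figure D4:**
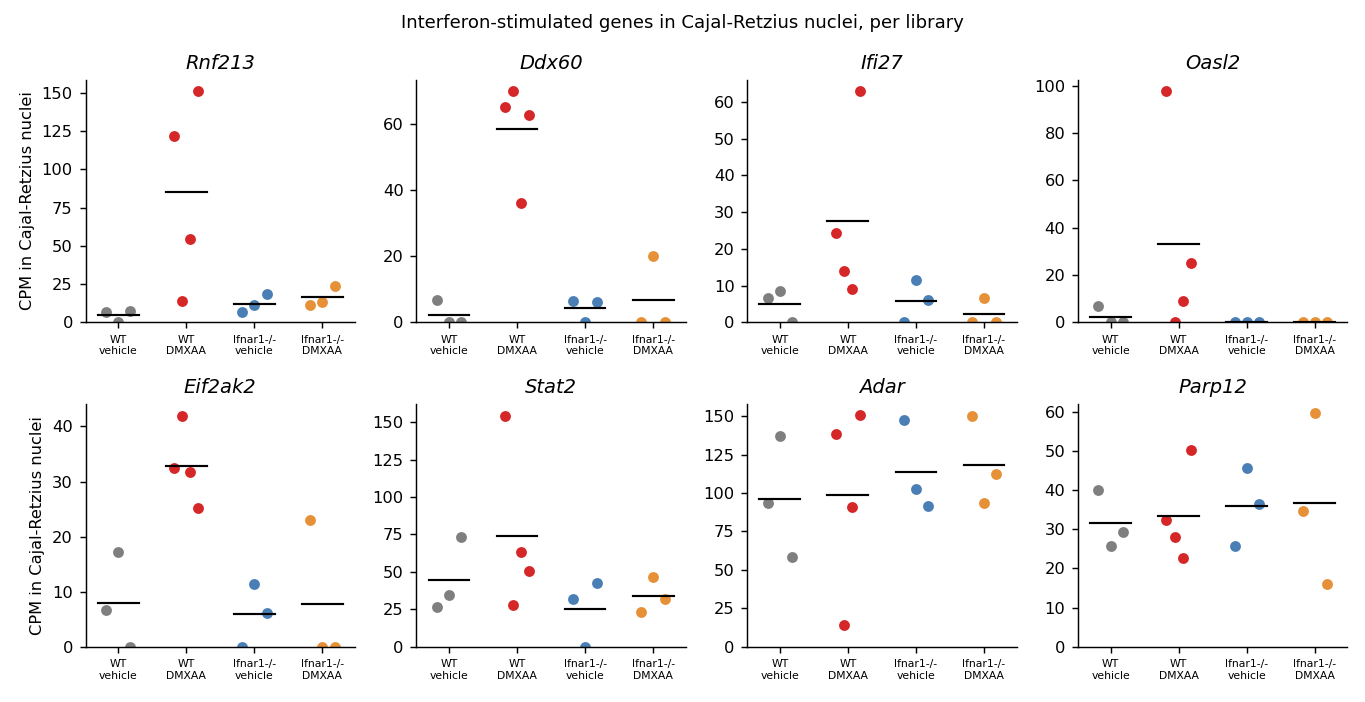
Level of 8 interferon-stimulated genes in Cajal-Retzius nuclei (CPM, linear axes from 0) in each of the 13 libraries, by group. Points are libraries and lines are means. *Rnf213*, *Ddx60*, *Ifi27* and *Eif2ak2* are higher in each WT DMXAA library than in each WT vehicle library, *Oasl2* is led by 1 DMXAA library, and *Adar* and *Parp12* overlap.

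The promoters of the interferon genes with at least 10 UMIs were searched for the core of the interferon-stimulated response element, GAAA followed after any 2 bases by GAAA, on both strands in the 250 bases before the start (RefSeq, GRCm38.p6). Of the 21 genes, 15 had a promoter in the table and 2 held the motif, *Ddx60* and *Stat2*, against 3.46% of 27025 genes. The stretches around the matches are shown with the motif in capitals, since both genes are described above. The *Ddx60* stretch lies at chr8:61927987-61928086 on the plus strand, with matches that begin 53 and 19 bases before the start. The *Stat2* stretch lies at chr10:128270248-128270347 on the plus strand, with its match on the opposite strand 222 bases before the start.
Ddx60: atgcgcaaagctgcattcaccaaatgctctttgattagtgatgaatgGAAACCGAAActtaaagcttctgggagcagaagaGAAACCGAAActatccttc
Stat2: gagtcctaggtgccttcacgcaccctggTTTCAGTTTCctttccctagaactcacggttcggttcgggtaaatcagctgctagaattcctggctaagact
A match describes these letters only, and *Rnf213*, *Oasl2* and *Eif2ak2* had none in the same window.

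The receptor and its kinases were next read in Cajal-Retzius nuclei. *Ifnar1*, the targeted gene, had 33 UMIs in the 13 libraries, at 33.3, 34.3 and 29.2 CPM in WT vehicle and 16.3, 14.0, 13.6 and 25.2 CPM in WT DMXAA libraries. In Ifnar1-/- libraries it was at 12.8, 22.8 and 12.2 CPM with vehicle and 23.1, 19.96 and 8.01 CPM with DMXAA. The gene was therefore not at 0 in the Ifnar1-/- libraries, and those values overlapped the WT DMXAA libraries. Reads on pre-mRNA are counted too, and where the reads of *Ifnar1* lie relative to the deletion was not tested. At this depth the label is not checked by the gene. Over the 13 libraries *Ifnar1* was at 20.4 CPM, *Ifnar2* at 13.03 CPM, and the kinases *Jak1* and *Tyk2* at 73.4 and 23.5 CPM. In interneurons these 4 genes were at 13.7, 15.1, 78.02 and 19.97 CPM, and none was called different. Against dentate granule neurons *Ifnar2* was called lower (13.03 against 19.7 CPM, −1.01 ± 0.32). Of the 20 listed genes of the receptor and STING pathway, 18 were in the files under the listed symbols and 9 passed the filter against interneurons, with 2 higher and 0 lower and a median of 0.29, and 10 against dentate granule neurons, with 1 higher and 1 lower and a median of −0.28, against the same background of 6.29% and 8.38% of all genes higher and 10.1% and 14.3% lower. *Irf3*, a factor downstream of STING, was higher than in either class (29.99 against 13.1 and 10.7 CPM). *Tmem173*, the gene of STING, was at 0.877 CPM against 60.8 CPM in microglia.

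Genes with the lowest unadjusted p under DMXAA were named although none was called. In WT, *Dscaml1*, an adhesion molecule of neurites, was at 886, 858 and 840 CPM with vehicle and 1301, 1133, 1676 and 1308 CPM with DMXAA (0.67 ± 0.19, edgeR adjusted p = 0.955). *Cpa6*, a secreted carboxypeptidase, was at 6.66, 17.2 and 7.30 CPM with vehicle and 40.7, 140, 63.4 and 37.7 CPM with DMXAA. For both genes the groups did not overlap, as for 155 of 3168 genes (4.89%). The same held for *Nkain3*, *Brinp1* and *Sp4*. On the lower side were *Slk*, *Slit2*, *Lrrtm4*, *Tenm3* and *Ola1*, all with an edgeR adjusted p of 0.955. *Slit2*, an axon guidance ligand, was at 140, 180 and 161 CPM with vehicle and 73.2, 42.0, 104 and 50.3 CPM with DMXAA.

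The value for *Lrrtm4*, an adhesion protein of excitatory synapses, depended on the nuclei with most UMIs. It was −1.496 on the log2 scale over all 390 nuclei and 0.41 without the nuclei over 10000 UMIs in the same 13 libraries. *Dpp10*, an auxiliary subunit of potassium channels and among the 18 genes called lower in WT without a filter on low counts, went from −2.45 to −0.54 by the same step, and *Tenm3*, a teneurin, from −1.66 to −0.24. *Slit2* went from −1.10 to −0.40 without those nuclei, in a fit that held 2 WT vehicle libraries.

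In Ifnar1-/- mice the genes of lowest p were *Pbx3*, *Cxxc5*, *Pgap1*, *Sorcs1* and *H3f3b* on the higher side and *Sox5*, *Tmem132d*, *Sp4*, *Zfp652* and *Galntl6* on the lower side (all with an edgeR adjusted p of 0.9996). With all 16 libraries *Galntl6* turned from −1.65 to 0.75, and *Sox5* went from −1.87 to −0.56. *Pbx3*, a homeobox factor, was at 38.5, 22.8 and 48.8 CPM with vehicle and 104, 113 and 160 CPM with DMXAA. Its groups did not overlap, as for 360 of 3168 genes (11.4%). *Sp4*, a zinc finger factor of neurons, was on the higher side in WT (1.08 ± 0.30) and on the lower side in Ifnar1-/- mice (−0.96 ± 0.29), and was called in neither contrast. *Pbx3*, *H3f3b* and *Sp4* are named again below between vehicle-treated mice of the genotypes. That comparison uses the same vehicle libraries, so it is not independent of the DMXAA values given here.

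The DMXAA effect in WT was set against that in other classes by a class by treatment term. Against dentate granule neurons 2 of 12532 genes (0.016%) differed, *Tenm3* by −1.92 ± 0.35 and *Il1rapl2*, a synaptic adhesion protein, by −3.20 ± 0.61 (edgeR adjusted p = 0.0097 and 0.0159). Both rested on Cajal-Retzius values that were not called. For *Tenm3* the value moved toward 0 without the nuclei over 10000 UMIs. *Il1rapl2* was at 0, 214 and 409 CPM in the WT vehicle libraries and, without those nuclei, at 0, 167 and 0 CPM. Against *Reln*-positive interneurons 0 of 9309 genes (0.0%) were called by edgeR and 376 had a raw p under 0.05. Against microglia 0 of 6098 (0.0%) were called and 233 had such a p. Both raw counts were under 0.05 of the genes tested.

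Between vehicle-treated mice of the 2 genotypes edgeR called 19 of 3168 genes (0.6%), 14 higher and 5 lower in Ifnar1-/- mice. All 19 had groups that did not overlap, as did 720 genes (22.7%) in all. DESeq2 called 43. The summed level of the 5 marker genes of the rule also differed between these groups, at 5710 to 11230 CPM in WT vehicle and 11810 to 17910 CPM in Ifnar1-/- vehicle libraries with no overlap. Its part in the calls was not tested. Over all 16 libraries the median depth of *Reln*-positive interneurons was 9459 to 10696.5 UMIs in WT and 12624.5 to 16870 UMIs in Ifnar1-/- libraries. The medians of Cajal-Retzius nuclei overlapped between the genotypes. The part of depth in the calls was not tested. *Plekha7*, a protein of adherens junctions, was at 420, 412 and 299 CPM in WT vehicle and 1099, 1379 and 927 CPM in Ifnar1-/- vehicle libraries (1.49 ± 0.26, edgeR adjusted p = 0.0278). *Sema6a*, a transmembrane semaphorin, was at 127, 232 and 87.6 CPM against 597, 547 and 390 CPM (1.71 ± 0.33, edgeR adjusted p = 0.0278). *Mtcl1*, a microtubule crosslinking factor, differed by 1.84 ± 0.30, *Gse1*, a subunit of a chromatin complex, by 1.38 ± 0.25, and *Cdh4*, a cadherin, by 1.28 ± 0.24. *Sp4*, *Ntng2* and *Msi2* were also higher, by 1.54, 1.26 and 1.16.

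Lower in Ifnar1-/- vehicle libraries were *H3f3b*, a gene of histone H3.3, *Pbx3*, *Malat1*, *Srgap2* and *Kif21a*. *Pbx3* was at 146, 137 and 161 CPM in WT and 38.5, 22.8 and 48.8 CPM in Ifnar1-/- libraries (−1.998 ± 0.37, edgeR adjusted p = 0.0278). *Kif21a*, a kinesin motor, was at 280, 275 and 321 CPM against 129, 137 and 140 CPM (−1.19 ± 0.23). *Malat1*, a noncoding RNA kept in the nucleus, was lower by −1.59 ± 0.32 in Cajal-Retzius nuclei and also called lower in interneurons (−1.51), dentate granule neurons (−1.70) and microglia (−1.82), where 2857 of 12980 genes (22%), 5244 of 15535 (33.8%) and 1146 of 9628 (11.9%) were called. Of the 13 named genes, 7 were called in the same direction in interneurons, 10 in dentate granule neurons and 5 in microglia. *Gse1*, *Msi2*, *Mtcl1* and *Malat1* were called in all 3 classes, and *Plekha7*, *Cdh4* and *H3f3b* in interneurons and dentate granule neurons. *Srgap2* was called in the opposite direction in interneurons (0.38). *Pbx3* and *Kif21a* were not called in those 3 classes, with differences of 0.85 and −0.04 in interneurons, 0.95 and 0.01 in dentate granule neurons and −0.19 and 1.12 in microglia. The difference between classes was not tested.

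The DMXAA libraries of the 2 genotypes share no library with that comparison, and they were compared in the same edgeR fit after the vehicle result had been seen. There edgeR called 0 of 3168 genes (0.0%), while 270 had a raw p under 0.05. Of the 19 genes, 17 differed in the same direction among DMXAA libraries, and for 13 of these the 2 groups did not overlap, against 300 of all 3168 genes (9.47%). *Malat1* was the closest in size, at 28970 CPM in Ifnar1-/- DMXAA and 79490 CPM in WT DMXAA libraries (−1.57 ± 0.30, edgeR adjusted p = 0.3). *Plekha7* differed by 0.64 ± 0.24 and *Mtcl1* by 0.70 ± 0.28. *Pbx3* and *Sp4* had the opposite sign, at 0.32 ± 0.32 and −0.50 ± 0.29.

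**Figure D5:**
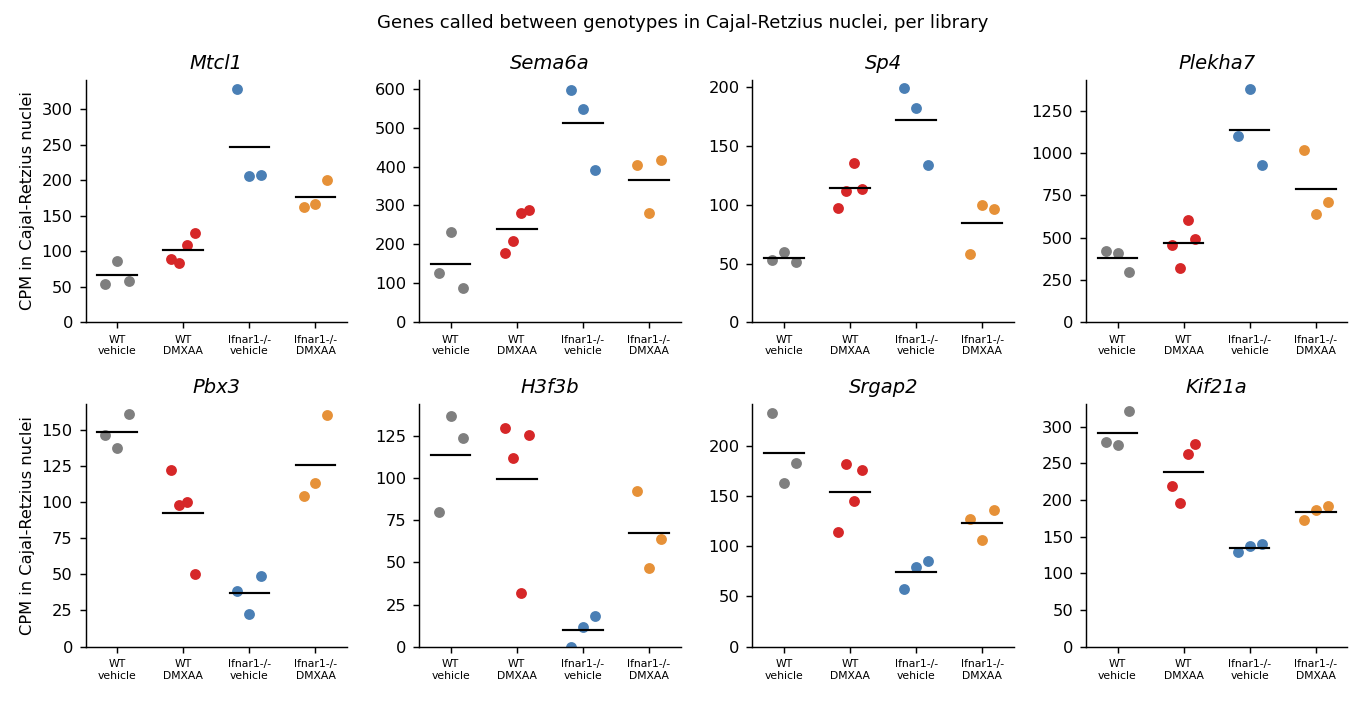
Level of 8 genes called between the genotypes among vehicle libraries (CPM in Cajal-Retzius nuclei, linear axes from 0) in each of the 13 libraries, by group. Points are libraries and lines are means. *Plekha7*, *Sema6a* and *Mtcl1* are higher and *Kif21a*, *Srgap2* and *Pbx3* lower in the 3 Ifnar1-/- vehicle libraries than in the 3 WT vehicle libraries.

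The count of called genes moved with single libraries and with the deepest nuclei. Without WT vehicle replicate 2 or 4, Ifnar1-/- vehicle replicate 1 or Ifnar1-/- DMXAA replicate 4, edgeR called 0 genes, and without WT DMXAA replicate 3 it called 39. Without the nuclei called as doublets 0 were called in the same 13 libraries, and without the nuclei over 10000 UMIs 11 were. The 13 named genes kept their sign in both of these fits. Without doublets *Malat1* was at −1.71, *Kif21a* at −1.17 and *Gse1* at 1.43, each with an edgeR adjusted p of 0.0554, and *Pbx3* was at −1.97. *Srgap2* moved most among the 13, from −1.47 to −0.86 without doublets and −0.69 without the nuclei over 10000 UMIs, where *Msi2* moved from 1.16 to 0.62 and *Sema6a* from 1.71 to 1.12.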

How the data were processed

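Single-nucleus 3' RNA-seq of sorted hippocampal nuclei was analysed from the deposited UMI counts per gene and barcode, which the authors made with Cell Ranger on mm10, with reads on pre-mRNA counted. The matrix headers name version 6.1.2 and the submitters' processing notes 3.1.0. The counts are whole numbers without normalization over 32285 genes. Nuclei with 200 to 7000 genes and at most 5% mitochondrial UMIs were kept. UMIs were summed per library and class, since nuclei are not replicates, where a library held at least 20 Cajal-Retzius nuclei. The 4 groups were fitted by the quasi-likelihood F test of edgeR 4.0.16 (R 4.3.3) with TMM factors and the filterByExpr minimum, two-sided with Benjamini-Hochberg adjustment. Calls needed an adjusted p below 0.05 with a log2 difference above 0.1 in size, or above 1 between classes, where the library was a block. Levels are CPM of the class's own UMIs. DESeq2 1.42.0, other filters, RLE factors and left-out libraries or nuclei were alternatives. Doublets were scored with Scrublet (scanpy 1.11.5) and kept in the main counts. The highest scores of each library were called, up to an expected share of 0.8% per 1000 barcodes. Shares were compared by exact permutation tests (SciPy 1.17.1). Positions are from GENCODE M21 (GRCm38). The edgeR script was tested on simulated counts. Named genes were the 5 of lowest p per direction for DMXAA where too few were called, up to 8 called genes per direction at 20 CPM or more between genotypes, the 10 of largest fold at 50 CPM or more between classes, and genes of the lists. The members, lists and rules were chosen with earlier results of these data known. The replicate numbers name libraries and pair none.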

Additional observations from a re-analysis of the deposited data

Results flagged for a closer look

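Among 59 groups of 4 libraries, 6 held a library far from the other 3, where chance gives about 1 in 20. All 6 were WT DMXAA libraries, since groups of 3 were not tested. Replicate 3 stood apart with 1961 CPM of *Lrrtm4*, 299 CPM of *Sox5*, a transcription factor of projection neurons, and 1857 CPM of *Galntl6*, all the highest of the group, and with 54.4 CPM of *Lhx1*, the lowest. Replicate 1 stood apart with 5765 CPM of *Reln*, the lowest, and with 8.13 CPM of *Tor3a*, an interferon-induced ATPase, the highest. The *Tor3a* value is 1 UMI in a group whose other libraries held 0.

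Nuclei with at least 2 of the 4 marker genes but no *Reln* lay outside the rule and outside every comparison. There were 63 in all. The WT DMXAA libraries held 22, 15, 0 and 6 of them in replicates 1 to 4, above the highest vehicle library (4) in 3 of 4 libraries. The Ifnar1-/- DMXAA libraries held 2, 0, 2 and 1. These nuclei had 547 CPM of *Ebf3*, 184 CPM of *Slc17a6* and 129 CPM of *Slc17a7*, the vesicular glutamate transporter VGLUT1, but 9.08 CPM of *Ndnf* and 14.5 CPM of *Trp73*, where Cajal-Retzius nuclei had 1489 and 764 CPM. Their mean depth was 8737 UMIs, against 4295 UMIs in Cajal-Retzius nuclei. The difference between groups was not tested.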

How the results depend on the processing

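The counts of 0 called genes under DMXAA held under DESeq2, RLE factors, a mean of 10 counts, at most 4000 genes per nucleus, all 16 libraries and the nuclei left out, in both genotypes. Without a filter on low counts 20 genes were called in WT, 9 in Ifnar1-/- mice, 6 for the difference between these effects and 57 between genotypes. For the 3 DMXAA contrasts, leaving out 1 library gave 0 in WT, 0 in Ifnar1-/- mice and 0 to 1 for the difference, with the 1 found without WT DMXAA replicate 3. Between genotypes the count of 19 became 43 with DESeq2, 55 with all 16 libraries, 1 with at most 4000 genes per nucleus, 0 without doublets and 2 without the nuclei over 10000 UMIs. Those last 3 fits held 2 WT vehicle libraries in place of 3, and the fit without doublets also held 3 WT DMXAA libraries in place of 4. With the same 13 libraries the counts were 0 without doublets and 11 without the nuclei over 10000 UMIs. Leaving out 1 library gave 0 to 39 genes, with 0 without WT vehicle replicate 2 or 4, Ifnar1-/- vehicle replicate 1 or Ifnar1-/- DMXAA replicate 4, 3 without WT vehicle replicate 3, 1 and 12 without Ifnar1-/- vehicle replicates 2 and 3, 7 without Ifnar1-/- DMXAA replicate 2 and 39 without WT DMXAA replicate 3. The difference of the WT effect from that of dentate granule neurons became 21 genes, and from that of interneurons 1 gene, with a mean of 10 counts. The cause of these changes was not tested.

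The difference in share between DMXAA and vehicle in WT, 0.0753 percentage points, was 0.122 without WT vehicle replicate 2 and 0.0245 without WT DMXAA replicate 3, the extremes when 1 library was left out. That in Ifnar1-/- mice, −0.0228 percentage points, changed sign to 0.00343 with at least 3 of the 4 genes, and ranged from −0.0656 to 0.00484 without 1 library. *Lrrtm4* in WT went from −1.496 to 0.19 on the log2 scale without the nuclei over 10000 UMIs and to 0.41 in the same 13 libraries, and *Galntl6* in Ifnar1-/- mice from −1.65 to 0.75 with all 16 libraries. The fits with all 16 libraries, without the nuclei over 10000 UMIs and in the same 13 libraries were chosen after seeing the data. At least 3 of the 4 genes could not be fitted for single genes, since no library had 20 such nuclei (highest 18). No paired analysis was possible because replicate numbers were given in accession order and pair no samples. Depth limits single genes, since 3 UMIs, the count that a 0 allows, were worth 13.59 to 41.97 CPM in a library.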
